A study of Mus musculus with 16 samples.

Results

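The response of MKα3+ keratinocytes to laminin-332 (LN332) was followed in 8 of the 16 RNA-seq libraries of the series, the 4 libraries of LN332-treated MKα3+ cells against the 4 libraries of vehicle-treated MKα3+ cells, which were chosen by line and treatment in the labels and matched by replicate number. MKα3+ cells are immortalized mouse keratinocytes (MK) that lack their own α3 integrin subunit and carry human α3 in its place, so that integrin α3β1 is restored, and MKα3− cells are the same line without it. Cells were grown on collagen in low-calcium medium at 33 °C and were given LN332 at 0.02 mg/mL, or the vehicle it is dissolved in (PBS with glycine and sodium azide), for 16 to 24 h. The model is limited to a single immortalized line on a collagen surface, and neither the labels nor the study's methods, which call data points of cell work experimental replicates, say that the replicates came from separate cultures. The p-values therefore measure the spread between these samples, which may be technical.

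LN332 is the laminin of the epidermal basement membrane and is built as a trimer, whose chains include those encoded by *Lama3* and *Lamb3*. Keratinocytes secrete it themselves, and they bind it through integrin α3β1, which signals through focal adhesions, the actin cytoskeleton, ERK and the transcriptional co-activator YAP, and through integrin α6β4, which anchors the cell in hemidesmosomes. Genes downstream of YAP and its DNA-binding partner TEAD, genes of the contractile apparatus and secreted proteases are the usual readouts of such adhesion signals in wound keratinocytes.

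The total count was between 24235758 and 27369778 in the 4 vehicle-treated libraries and between 25204879 and 27767127 in the 4 LN332-treated libraries, over 14474 genes. Expression is given as CPM, the count of a gene scaled to a fixed library total, with TMM scaling, which uses a trimmed mean of the log ratios between libraries, and the 4 values of a group are always listed from replicate 1 to replicate 4. Fold changes are on the log2 scale, LN332 over vehicle, and the value after ± is the standard error. The labelled cell type was borne out by its markers, since all 8 keratinocyte markers were measured and their summed level was between 9310 and 13188 CPM with vehicle and between 10745 and 14460 CPM with LN332. Fibroblast, melanocyte and endothelial markers summed to at most 40.7, 7.62 and 8.31 CPM in any of the 8 libraries. Leukocyte markers were higher, at 58.6 to 355 CPM, and are described further on. The α3 put back is the human protein, while reads were aligned to mouse, so the count of mouse *Itga3* does not check the label of the line. Replicate number accounted for 62.3% and treatment for 17.5% of the variation among the 8 libraries. Replicate number has more levels and takes a larger share for that alone, so these shares do not rank the 4 replicate numbers above treatment. Both replicate 1 libraries lay apart on the first principal component. Deviations from the group means correlated by 0.202 to 0.620 between libraries of the same number, and by -0.513 to 0.358 between libraries of different numbers. The highest of the latter, LN332 replicate 4 with vehicle replicate 3, was above the 0.202 of the replicate 3 pair. Deviations cancel within a group, so the negative average of -0.146 between different numbers follows from the positive one and is no separate evidence. Calls are therefore given from the study's design, a limma-voom fit with no block, and from a paired fit that takes replicate number as its block. A value is from the fit without a block unless it is called paired or said to be from the fit with the block.

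**Figure D1:**
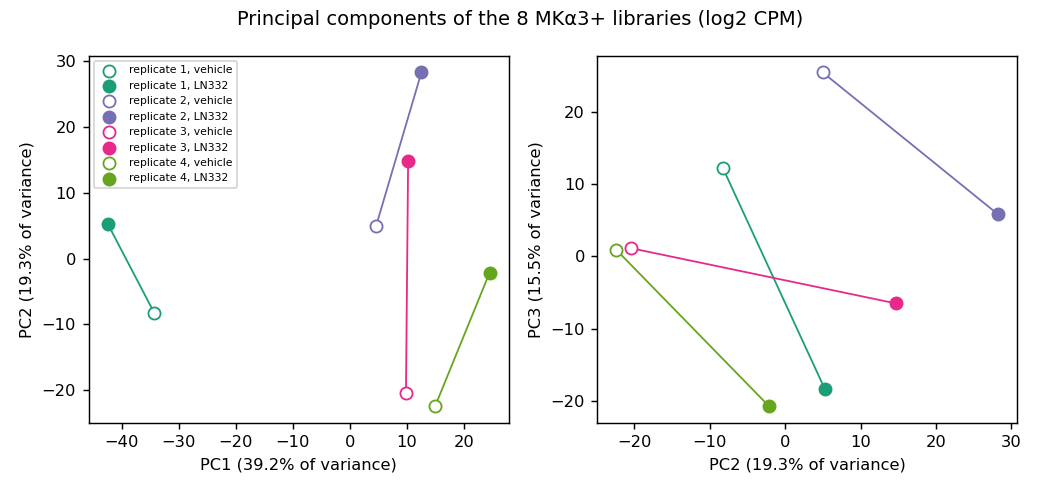
Principal components of the 8 MKα3+ libraries from log2 CPM, with PC1 against PC2 on the left and PC2 against PC3 on the right and the share of variance on each axis. Open circles are vehicle and filled circles LN332, with libraries of the same replicate number in 1 color and joined by a line, and both replicate 1 libraries lie at the left end of PC1, at -34.3 and -42.4.

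More genes were called higher than lower with LN332 in MKα3+ cells with TMM scaling, a balance that turned in the paired fit with library size alone. The lean was in the calls only, as 7025 of all 14474 log2 fold changes were positive and 7449 negative with TMM. Genes that rose in both fits by about 1 or more on the log2 scale were the matricellular protein gene *Ccn2*, the mucin gene *Muc16*, the protease inhibitor gene *Serpinb2*, a gene with no symbol (Entrez 100861595), the tissue factor gene *F3* and the actin-binding protein gene *Dbn1*, and the genes that fell were *Dtx4*, of the Notch pathway, and *Sdf2l1*, of the endoplasmic reticulum (ER). In the fit without a block, 27 of 14474 genes (0.187%) were called at an adjusted p-value under 0.05 with an absolute log2 fold change over 0.5, of which 25 (0.173%) were higher and 2 (0.0138%) were lower with LN332. The paired fit called 218 genes (1.51%), 146 of them higher (1.01%) and 72 lower (0.497%), and all 27 genes of the first fit were among them. For all 27 genes the 4 LN332 libraries did not overlap the 4 vehicle libraries and all 4 replicate pairs changed in 1 direction, whereas 161 of the 218 genes did not overlap. Across all genes, 4.78% were higher and 4.88% were lower without overlap, and in 19.4% and 19.9% all 4 pairs were higher or lower.

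These counts depended on single libraries, on the block and on the scaling. Without vehicle replicate 2 or 4, or without LN332 replicate 3 or 4, 0 genes were called in limma-voom with no block, although between 1048 and 1149 genes had an unadjusted p under 0.05 in those fits. The count was 3 without vehicle replicate 3, 5 without vehicle replicate 1 and 12 without LN332 replicate 2. In the 16 fits that left out 1 library, the 26 called genes described here had log2 fold changes between 0.835 and 1.15 times the full value. Their sign could hardly turn there, as their groups did not overlap. Some of these fits left out MKα3− libraries, which are not part of the contrast. With all libraries, the adjusted p-values of the 26 genes were between 0.0221 and 0.0472 without the block and between 0.00137 and 0.0126 with it. The paired fit called 14 genes without replicate 2, 38 without replicate 3 and 99 without replicate 4, against 248 without replicate 1, whose libraries stood apart. Of 58 paired calls followed through these 4 fits, 6 held in all of them (*Ccn2*, *Serpinb2*, *F3*, *Cavin3*, *Shroom1* and *Has2*) and 4 in none (*Ccn1*, *Sox9*, *Neurl1b* and *Syna*). The balance of the paired calls turned with the scaling, from 146 higher and 72 lower with TMM to 91 higher and 170 lower with library size alone. The TMM factors were between 1.01 and 1.04 with vehicle and between 0.961 and 0.988 with LN332, the 10 most abundant genes took between 4.84% and 5.08% of the counts with vehicle and between 5.47% and 6.43% with LN332, and the part of this difference in the result was not tested.

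**Figure D2:**
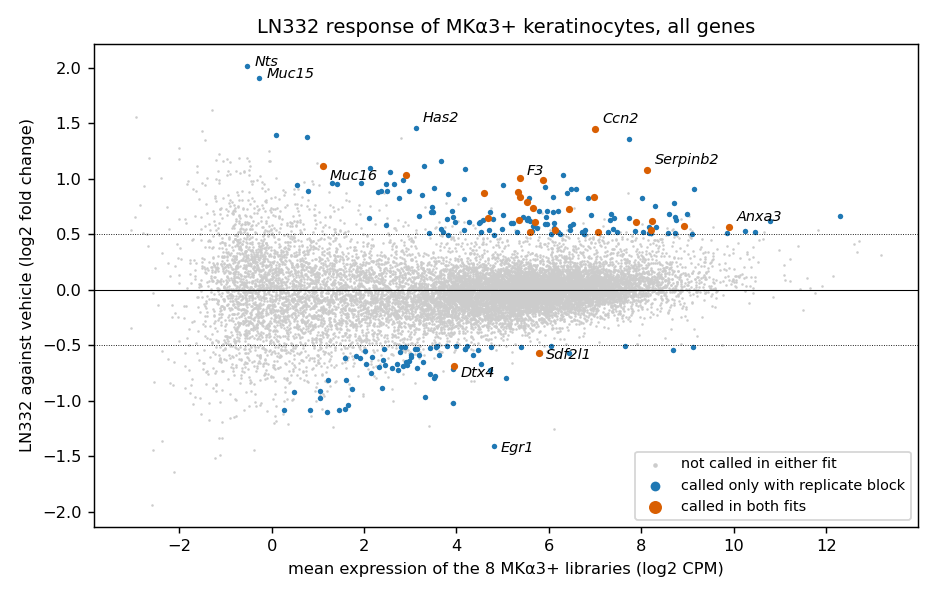
Log2 fold change of LN332 against vehicle in MKα3+ cells (fit without block) against the mean log2 CPM of the 8 libraries, with each point 1 gene and dotted lines at the minimum log2 fold change of 0.5. Orange genes were called in both fits and blue genes in the paired fit only, and *Ccn2*, at 1.45, was the highest of the orange genes.

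Targets of YAP and TEAD had the most called members of any list in the paired fit, 6 of 22, against 1.51% of all genes. Smaller lists had a like or larger share, with 3 of 11 actin remodelling genes, 3 of 11 plasminogen and coagulation genes, 2 of 6 Sox genes and 2 of 3 mucins. Without the block the targets of YAP and TEAD had 2 calls and the actin remodelling genes described further on had 3. *F3* is also in the plasminogen and coagulation list. Of the 22 measured members, 2 rose in both fits (*Ccn2* and *F3*), 4 more rose in the paired fit (*Ankrd1*, *Ccn1*, *Gadd45a* and *Amotl2*), and 0 were called lower. The median log2 fold change of the 22 was 0.40, against -0.0067 for all genes. In MKα3− cells the median of the 22 was 0.35, against -0.0056 for all genes. All 4 pairs were higher for 13 of them, against 19.4% of all genes. Without replicate 1 the paired fit called 5 of the 22, and with library size alone it called 6. Among members that were not called, *Axl*, *Dock5* and *Myof* had log2 fold changes of 0.027, 0.015 and -0.018.

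*Ccn2* (Entrez 14219, chromosome 10, 24595442 to 24598683 in mm10), which encodes the matricellular protein CTGF, was at 82.2, 79.1, 84.6 and 64.3 CPM with vehicle and at 298, 139.6, 252 and 190.0 CPM with LN332. Every LN332 library was above every vehicle library, although the difference was smallest in replicate 2. The log2 fold change was 1.45 ± 0.21 (adjusted p = 0.0221) in limma-voom and 1.46 ± 0.19 (adjusted p = 0.00156) in the paired fit. *Ccn1*, which encodes the related matricellular protein CYR61, was at 299, 443, 501 and 417 CPM with vehicle and at 763, 571, 976 and 824 CPM with LN332, and the groups did not overlap, with replicate 2 again the pair with the smallest difference. Its log2 fold change of 0.91 ± 0.21 (adjusted p = 0.0899) was not called without the block and was 0.91 ± 0.20 (adjusted p = 0.0256) with it, and the paired call was lost without any 1 of the 4 replicate numbers. Exons of the antisense transcript Gm15270 overlap *Ccn2*, and as no strand setting is given for the counting, its count is uncertain.

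*Ankrd1*, a nuclear ankyrin-repeat protein induced by stretch, was at 10.8, 11.1, 16.6 and 11.9 CPM with vehicle and at 27.5, 20.9, 32.7 and 26.0 CPM with LN332, higher in every pair. The paired log2 fold change was 1.13 ± 0.22 (adjusted p = 0.0125). *Amotl2*, an angiomotin that binds YAP at the membrane, was at 327, 294, 320.3 and 283 CPM with vehicle and rose to 498, 489, 484 and 495 CPM, with a paired log2 fold change of 0.69 ± 0.12 (adjusted p = 0.0100). *Gadd45a*, which acts in growth arrest and DNA repair, was at 87.4, 71.6, 52.6 and 55.3 CPM and 144, 145, 92.8 and 117 CPM, with a paired log2 fold change of 0.91 ± 0.17 (adjusted p = 0.0118). Its exons overlap a transcript on the opposite strand. Without the block the adjusted p of *Ankrd1*, *Amotl2* and *Gadd45a* was 0.0787, 0.0941 and 0.0903.

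The 250 bases before the transcription start of *Ankrd1*, *Ccn1* and *Amotl2* are shown because these 3 called targets each hold the core TEAD motif GGAATG (on either strand) there, and those of *F3* because they hold a pair of AP-1 motifs (TGANTCA, which reads the same on both strands). Sequences are from RefSeq on GRCm38.p6 (the mm10 assembly), read 5′ to 3′ on the strand of the gene, and capitals mark the motifs, with the TEAD motif written CATTCC where it lies on the other strand.
*Ankrd1*, chr19:36119845-36120094, minus strand: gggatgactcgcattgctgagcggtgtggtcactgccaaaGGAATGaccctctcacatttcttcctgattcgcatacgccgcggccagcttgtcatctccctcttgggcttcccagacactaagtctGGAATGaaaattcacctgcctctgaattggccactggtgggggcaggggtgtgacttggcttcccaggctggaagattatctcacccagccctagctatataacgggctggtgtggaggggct
*Ccn1*, chr3:145649986-145650235, minus strand: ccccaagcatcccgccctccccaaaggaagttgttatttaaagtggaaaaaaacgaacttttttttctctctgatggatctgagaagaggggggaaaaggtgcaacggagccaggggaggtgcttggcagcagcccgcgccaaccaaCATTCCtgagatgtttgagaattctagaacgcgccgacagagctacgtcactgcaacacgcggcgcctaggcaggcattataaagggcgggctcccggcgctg
*Amotl2*, chr9:102717554-102717803, plus strand: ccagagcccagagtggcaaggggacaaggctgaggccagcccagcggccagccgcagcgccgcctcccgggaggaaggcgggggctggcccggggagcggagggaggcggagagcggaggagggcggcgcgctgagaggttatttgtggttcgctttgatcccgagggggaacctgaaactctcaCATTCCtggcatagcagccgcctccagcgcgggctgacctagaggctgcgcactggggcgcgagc
*F3*, chr3:121723287-121723536, plus strand: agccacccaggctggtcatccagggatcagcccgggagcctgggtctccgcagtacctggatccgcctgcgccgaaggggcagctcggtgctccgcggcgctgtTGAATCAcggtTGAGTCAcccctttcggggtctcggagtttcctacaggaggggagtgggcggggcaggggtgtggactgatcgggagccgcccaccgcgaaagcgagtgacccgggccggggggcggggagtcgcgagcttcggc
The TEAD motif began 210 and 123 bases before the start in *Ankrd1*, 103 bases before it in *Ccn1* and 65 bases before it in *Amotl2*. Both AP-1 motifs of *F3* lay within 146 bases of the start. The windows of *F3* and *Gadd45a* hold no TEAD motif. *Ccn2* has no window among the promoter sequences used, so it was not searched. Matches of this kind were common, since the TEAD motif was in 10.9% and the AP-1 motif in 4.97% of the 13842 windows that belong to genes of the table, and in 12.6% and 6.75% of all 32851 mouse promoter windows of this length. Over the 127 windows of the genes that rose in the paired fit, the TEAD motif was in 14.2% and the AP-1 motif in 12.6%, and over the 75 windows of the genes that fell they were in 14.7% and 9.33%. The serum response element CArG box was in 3.94% of the first, in 0 of the second, in 1.11% of the windows of the table's genes and in 1.47% of all windows. These shares describe the letters in the windows and were not tested, and several windows belong to alternative starts of 1 gene.

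Among genes that regulate the actin cytoskeleton, *Dbn1*, *Cdc42ep3* and *Nedd9* rose with LN332. They were the 3 calls, in both fits, of 11 actin remodelling and Cas scaffold genes, a list drawn up with the calls of these data known, and the median log2 fold change was 0.26. *Dbn1*, which encodes the actin-bundling protein drebrin, was at 53.4, 34.0, 42.1 and 38.7 CPM with vehicle and at 80.9, 82.9, 81.6 and 84.5 CPM with LN332. The LN332 libraries lay close together and above all vehicle libraries, of which replicate 1 was the highest. *Nedd9*, a scaffold of the Cas family that links focal adhesions to Src and Rac, was at 42.7, 39.8, 41.3 and 44.0 CPM and 72.7, 52.9, 63.9 and 68.2 CPM. *Cdc42ep3*, an effector of Cdc42 that organizes septins and actin, was at 35.1, 30.4, 31.8 and 27.3 CPM and 64.3, 53.0, 53.2 and 51.8 CPM. The groups of both genes did not overlap, and the paired log2 fold changes were 0.99 ± 0.19 (adjusted p = 0.0107) for *Dbn1*, 0.61 ± 0.10 (adjusted p = 0.00554) for *Nedd9* and 0.84 ± 0.16 (adjusted p = 0.0107) for *Cdc42ep3*. Relatives of these genes were not called, as *Bcar1*, which encodes p130Cas, had a log2 fold change of 0.12, *Cdc42ep4* of -0.28 and *Cdc42ep2* of -0.54. Of the 11 genes, 9 had a positive log2 fold change. *Cdc42ep1* and *Cdc42ep5*, at 0.30 and 0.19, were higher in all 4 pairs. *Rnd3* had a paired 0.45 (adjusted p = 0.0118), under the minimum fold. *Nedd9* and *Cdc42ep3* each share exonic sequence with a transcript of the opposite strand, which leaves their counts uncertain.

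Contractile genes and targets of serum response factor (SRF) were not called, although most had a positive log2 fold change. Of 19 measured members, 0 were called in either limma-voom fit, 0 by edgeR and 3 by DESeq2 with the block. In the paired fit 12 of the 19 had an unadjusted p under 0.05, against 2373 of all 14474 genes. A positive log2 fold change was found in 18, all 4 pairs were higher for 17, and the groups did not overlap for 12, against 4.78% of all genes higher without overlap. Their median log2 fold change was 0.43, and it was 0.35 with library size alone. In the paired fit 7 of the 19 had an adjusted p under 0.05 and missed the call because the log2 fold change was under 0.5, against 2.17% of all genes higher and 1.2% lower at that adjusted p. These were *Myh9*, the heavy chain of nonmuscle myosin IIA, with 0.46 ± 0.08 (adjusted p = 0.00690), *Fhl2* with 0.43, *Actn1* with 0.33, *Tpm1* with 0.37, *Filip1l* with 0.49, *Flna* with 0.42 and *Actb* with 0.44. *Actg1*, which encodes cytoplasmic γ-actin, was at 433, 478, 446 and 455 CPM with vehicle and at 695, 629, 659 and 638 CPM with LN332. The groups of *Actg1* did not overlap and all 4 pairs were higher, but with a paired log2 fold change of 0.53 ± 0.18 (adjusted p = 0.123) it was not called. *Tagln*, an SRF target of smooth muscle, was lower in all 4 pairs, with -0.28 ± 0.19 (adjusted p = 0.749). Focal adhesion genes had a median of 0.089, with 0 of 13 called by limma-voom, edgeR or DESeq2 and 4 at an unadjusted p under 0.05 in the paired fit. *Tns3*, which encodes tensin 3, had a paired log2 fold change of 0.30 ± 0.07 (adjusted p = 0.0220), under the minimum fold, and *Tns1*, which encodes tensin 1, had a paired -0.44 ± 0.15 (adjusted p = 0.131).

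**Figure D3:**
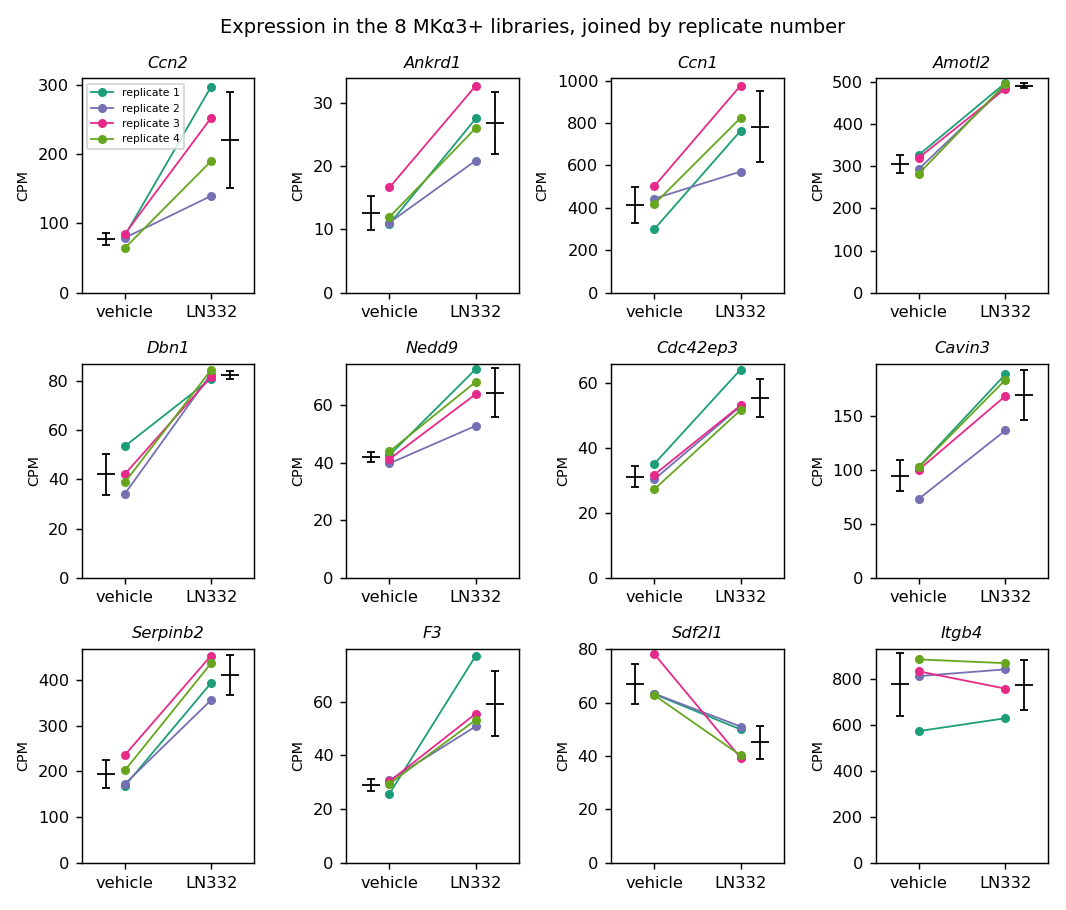
CPM of 12 genes in the 8 MKα3+ libraries, vehicle on the left and LN332 on the right of each panel, with lines joining libraries of the same replicate number and black marks showing the mean ± SD of 4 libraries. In the 10 panels from *Ccn2* to *F3* every LN332 library lies above every vehicle library, for *Sdf2l1* every LN332 library lies below, and for *Itgb4* the groups overlap.

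Proteases, their inhibitors and the initiator of coagulation were the next group with large changes. Of 11 plasminogen and coagulation genes, *Serpinb2* and *F3* rose in both fits and *Plau* rose in the paired fit, and 0 were called lower. The median was 0.38, with 7 positive and 4 negative log2 fold changes. *Plat* and *Tfpi*, at -0.35 and -0.39, were lower in all 4 pairs and not called. *Serpinb2* (Entrez 18788, chromosome 1, 107500892 to 107525600), which encodes the plasminogen activator inhibitor PAI-2, was at 168, 172, 236 and 202 CPM with vehicle and at 394, 356, 453 and 437 CPM with LN332, a log2 fold change of 1.08 ± 0.17 (adjusted p = 0.0262) and of 1.08 ± 0.12 (adjusted p = 0.00137) in the paired fit. The groups were far apart, and the paired call held without each of the 4 replicate numbers in turn. *Serpinb10* shares exonic sequence with *Serpinb2* on its own strand, which can divide reads between them. *F3* (Entrez 14066, chromosome 3, 121723537 to 121735052), which encodes tissue factor, was at 25.8, 30.7, 30.4 and 29.5 CPM and 77.2, 50.9, 55.6 and 53.3 CPM, with replicate 1 the highest under LN332 and the lowest under vehicle, and its paired log2 fold change was 1.03 ± 0.15 (adjusted p = 0.00303).

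*Plau*, which encodes the plasminogen activator urokinase, was far more highly expressed, at 1639, 1301, 1536 and 1246 CPM with vehicle and 2621, 1789, 2327 and 2116 CPM with LN332. Every pair was higher, and the log2 fold change was 0.62 ± 0.25 (adjusted p = 0.388) without the block and 0.62 ± 0.13 (adjusted p = 0.0184) with it. The urokinase receptor gene *Plaur* had a paired log2 fold change of 0.48 ± 0.12 (adjusted p = 0.0370), under the minimum fold. Of 12 metalloproteinases and inhibitors, *Mmp9*, a gelatinase, and *Adamts1*, an aggrecanase, rose in the paired fit, and 1 of the 12 was called without replicate 1. *Adamts1* was at 24.2, 91.2, 89.2 and 75.7 CPM and 67.8, 146, 137 and 123 CPM, so that replicate 1 was low in both groups and the groups overlapped although every pair was higher (paired 0.86 ± 0.15 (adjusted p = 0.00879)). *Mmp9* was at 12.6, 6.74, 9.87 and 6.26 CPM and 25.9, 10.4, 14.2 and 11.1 CPM, with replicate 1 high in both groups and a paired log2 fold change of 0.82 ± 0.22 (adjusted p = 0.0495).

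Single members of several families rose while their relatives did not pass the test. These lists hold genes whose calls were known when the lists were drawn up. *Cavin3*, a coat protein of caveolae, the small pits of the plasma membrane, was at 103, 73.2, 100.1 and 102 CPM with vehicle and at 188, 136, 168 and 183 CPM with LN332, without overlap and with replicate 2 the lowest in both groups. Its paired log2 fold change was 0.84 ± 0.10 (adjusted p = 0.00137), and it was the one call among 7 caveolar genes, where *Cavin1* had 0.0089, *Cav1* had 0.29 and the median was 0.058 with TMM and -0.019 with library size alone. A transcript on the opposite strand overlaps *Cavin3*. *Sox11*, a transcription factor of progenitor cells, was at 42.9, 35.5, 39.3 and 38.5 CPM and 75.8, 59.1, 61.4 and 65.3 CPM, a paired log2 fold change of 0.74 ± 0.10 (adjusted p = 0.00155). *Sox9*, a factor of hair follicle stem cells, rose in the paired fit by 0.56 ± 0.14 (adjusted p = 0.0394), from 44.8, 39.0, 48.8 and 44.0 CPM to 74.6, 58.7, 68.8 and 58.6 CPM, and of the other 4 Sox genes measured *Sox4* had a log2 fold change of 0.52 ± 0.28 (adjusted p = 0.592). Without replicate 1 only 1 of these Sox genes was called in the paired fit, and the call of *Sox9* was lost without any 1 of the 4 numbers.

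Of 3 mucin genes measured, the transmembrane mucins *Muc16* and *Muc15* rose and *Muc1*, at -0.11, was not called. *Muc16* (Entrez 73732, chromosome 9, 18495445 to 18674821) was at 1.38, 1.32, 1.29 and 1.62 CPM with vehicle and at 3.09, 2.64, 3.15 and 3.37 CPM with LN332, a low level with no overlap between the groups and a log2 fold change of 1.11 ± 0.21 (adjusted p = 0.0466). *Muc15* was lower still, at 0.291, 0.481, 0.274 and 0.504 CPM and 1.12, 1.62, 1.40 and 1.76 CPM, with the largest log2 fold change of the called list members, 1.90 ± 0.46 (adjusted p = 0.0349) in the paired fit, and its exons overlap those of *Ano3* on the opposite strand. Without replicate 1 the paired fit called 1 of the 3. Among 14 cytokine and chemokine genes, *Csf1*, the macrophage growth factor, and *Tslp*, an epithelial cytokine, rose in the paired fit, and 4 of the 14 were called there without replicate 1. *Csf1* was at 264, 238, 282 and 257 CPM and 419, 329, 409 and 390.1 CPM, without overlap, and its paired log2 fold change was 0.57 ± 0.10 (adjusted p = 0.0107). *Tslp* was at 0.619, 0.521, 0.548 and 0.720 CPM and 1.29, 1.79, 1.36 and 2.14 CPM, again without overlap, with a paired log2 fold change of 1.38 ± 0.32 (adjusted p = 0.0275). *Ccl20* and *Il33* had log2 fold changes of 1.37 and 0.81 that were not called, and *Tnf* had -0.94.

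Leukocyte markers, another cell type, were mostly lower with LN332 in MKα3+ cells. Of 8 leukocyte markers 6 were measured, 5 of them had a negative log2 fold change, and the median was -0.75 in MKα3+ cells and 0.33 in MKα3− cells. In the paired fit 1 of the 6 was called, and their summed level was between 100.9 and 348 CPM with vehicle and between 58.6 and 355 CPM with LN332. In replicates 2 to 4 most of it was *Lyz2*, the lysozyme gene of myeloid cells. In replicate 1, where the sums were 113 CPM with vehicle and 58.6 CPM with LN332, most of it was not. *Lyz2* was at 45.3, 53.2, 229 and 237 CPM with vehicle and 4.50, 47.1, 77.4 and 237 CPM with LN332. It was lower with LN332 in all 4 pairs, though barely in replicate 4, and low in replicates 1 and 2 of both groups. It was not called (paired -1.08 ± 0.91 (adjusted p = 0.640)). *Ptprc*, the pan-leukocyte gene, was between 0.482 and 3.81 CPM, and *Cd3e*, of T cells, has no row among the 14474 genes. *Cd68* fell in the paired fit, from 33.4, 22.8, 31.4 and 30.8 CPM to 21.3, 13.8, 17.98 and 21.5 CPM (log2 fold change -0.68 ± 0.17 (adjusted p = 0.0439)). The part of these markers, 5 of 6 lower in value with LN332 and 1 called, in the changes of the cytokine genes and *Cd80* was not tested.

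Of the remaining genes called in both fits, several encode proteins of the cell surface or of cell adhesion. *Cd80*, a co-stimulatory ligand of T cells, was at 33.8, 37.8, 34.0 and 33.8 CPM with vehicle and 63.1, 63.4, 56.5 and 59.1 CPM with LN332, and *Pvr*, an adhesion receptor of the nectin family, was at 42.6, 37.6, 41.9 and 38.7 CPM and 50.8, 54.3, 65.2 and 61.8 CPM. Both groups were separate, with log2 fold changes of 0.80 ± 0.16 (adjusted p = 0.0466) and 0.52 ± 0.10 (adjusted p = 0.0472). *Phldb2*, a cortical microtubule anchor that binds near laminin adhesions, was at 246, 242, 241 and 234 CPM and 361, 369, 346 and 409.7 CPM (log2 fold change 0.62 ± 0.12 (adjusted p = 0.0466)). *Shroom1*, an actin-binding protein, was at 61.5, 60.3, 70.5 and 77.1 CPM and 141, 90.0, 103 and 118 CPM (log2 fold change 0.73 ± 0.14 (adjusted p = 0.0466)), with the highest value in LN332 replicate 1. *Anxa3*, an annexin that binds membrane phospholipid, was the most abundant of the called genes, at 847, 832, 758 and 718 CPM and 1183, 1217, 1182 and 1095 CPM.

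*Ptpn22*, a tyrosine phosphatase, was at 13.7, 17.1, 18.8 and 22.4 CPM with vehicle and 26.2, 32.5, 31.9 and 40.8 CPM with LN332, and *Gc*, the vitamin D binding protein, was at 32.1, 25.6, 30.8 and 29.7 CPM and 49.0, 49.0, 51.4 and 70.4 CPM. Their log2 fold changes were 0.87 and 0.88, and in *Gc* replicate 4 was far above the other LN332 libraries. *Plk2*, a polo-like kinase, was at 398, 422, 434 and 350.3 CPM and 599, 602, 618 and 566 CPM, and *Osbpl3*, a lipid transfer protein of membrane contacts, at 209, 168, 197 and 189 CPM and 358, 257, 267 and 288 CPM. *Phlda1*, a gene induced by ERK, was the one member called among 10 ERK output genes, at 103, 113, 129.7 and 104 CPM and 166, 156, 169 and 153 CPM (log2 fold change 0.53 ± 0.10 (adjusted p = 0.0466)), and the median of the 10 was 0.29. Without replicate 1 the paired fit called 0 of the 10. *Epha2*, *Dusp6* and *Spry4* had log2 fold changes of 0.51, -0.096 and 0.023. *Zfp354a*, *Arid5a*, *Ric1* and *Pttg1ip* rose by log2 fold changes of 0.64, 0.63, 0.54 and 0.54. The gene with Entrez identifier 100861595, which has no symbol in the table, rose by 1.04 from a level between 4.77 and 5.97 CPM. *Shroom1* and *Phlda1* each overlap a transcript of the opposite strand, and *Anxa3* overlaps another gene on its own strand.

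The genes that fell in both fits were *Sdf2l1* and *Dtx4*. *Sdf2l1* (Entrez 64136, chromosome 16, 17130138 to 17132383), a component of the chaperone complex of the endoplasmic reticulum, was at 63.2, 63.4, 78.2 and 62.8 CPM with vehicle and 49.96, 51.1, 39.3 and 40.3 CPM with LN332, with vehicle replicate 3 the highest and all LN332 libraries below all vehicle libraries. Its log2 fold change was -0.57 ± 0.11 (adjusted p = 0.0466), and -0.57 ± 0.11 (adjusted p = 0.0107) in the paired fit. Of 20 genes of ER chaperones and ER stress, *Sdf2l1* was the one called, 18 had a negative log2 fold change and all 4 pairs were lower for 13, with a median of -0.16. *Calr*, which encodes calreticulin, and *Creld2* had paired log2 fold changes of -0.48 ± 0.11 (adjusted p = 0.0256) and -0.37 ± 0.09 (adjusted p = 0.0441), under the minimum fold. *Hspa5*, which encodes BiP, had a paired log2 fold change of -0.35 ± 0.13 (adjusted p = 0.182). *Atf4* and *Trib3*, of the integrated stress response, stood on the other side of 0, with 0.64 ± 0.33 (adjusted p = 0.590) and 0.87 ± 0.49 (adjusted p = 0.619), and neither was called.

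*Dtx4* (Entrez 207521, chromosome 19, 12466329 to 12502179), a Deltex ubiquitin ligase that acts on Notch, was at 20.8, 19.3, 20.02 and 17.5 CPM with vehicle and 14.2, 11.6, 10.3 and 12.2 CPM with LN332, without overlap. Its log2 fold change was -0.69 ± 0.14 (adjusted p = 0.0466), and it was the one call among 13 genes of the Notch pathway, with a median of -0.10.

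The genes of the ligand and its receptors did not pass the test. Of the LN332 chain genes described here, *Lama3* was at 549, 464, 533 and 579.7 CPM with vehicle and 654, 515, 600.0 and 689 CPM with LN332, and *Lamb3* at 651, 549.8, 674 and 703 CPM and 742, 543, 667 and 737 CPM. The groups overlapped for both, 0 had an unadjusted p under 0.05, the paired log2 fold changes were 0.21 ± 0.13 (adjusted p = 0.472) and 0.057 ± 0.11 (adjusted p = 0.873), and the sign of *Lamb3* was negative with library size alone. Exons of *Lama3* overlap a transcript on the opposite strand.

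*Itga3*, from the mouse locus, was at 211, 312, 309 and 276 CPM and 272, 314, 311 and 314 CPM, a paired log2 fold change of 0.14 ± 0.14 (adjusted p = 0.706). *Itgb1*, the β1 subunit shared by most integrins of keratinocytes, was at 468, 678, 642 and 638 CPM and 542, 779.7, 813 and 823 CPM, higher in every pair but low in replicate 1 of both groups, with a paired 0.28 ± 0.11 (adjusted p = 0.189). The α6β4 subunits *Itga6* and *Itgb4* had paired log2 fold changes of -0.13 ± 0.14 (adjusted p = 0.745) and 0.0076 ± 0.15 (adjusted p = 0.988), and their groups overlapped. Over the 8 genes of LN332 receptors and the hemidesmosome, 0 were called by limma-voom, edgeR or DESeq2. In the paired fit 1 of the 8 had an unadjusted p under 0.05, against 2373 of all 14474 genes. The median of the 8 was 0.049 with TMM and -0.029 with library size alone. Among 9 other integrin subunits, 1 was called, *Itga2*, whose product is the α2 subunit of a collagen receptor. It was at 7.68, 5.73, 9.36 and 11.4 CPM with vehicle and 16.3, 7.55, 18.5 and 26.5 CPM with LN332, so that the groups overlapped while every pair was higher, and the log2 fold change was 0.92 ± 0.39 (adjusted p = 0.443) without the block and 0.999 ± 0.21 (adjusted p = 0.0188) with it. *Itgb6*, the β6 subunit of wound keratinocytes, had a paired 0.38 ± 0.09 (adjusted p = 0.0350), under the minimum fold, and *Itga5* had -0.0036.

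**Figure D4:**
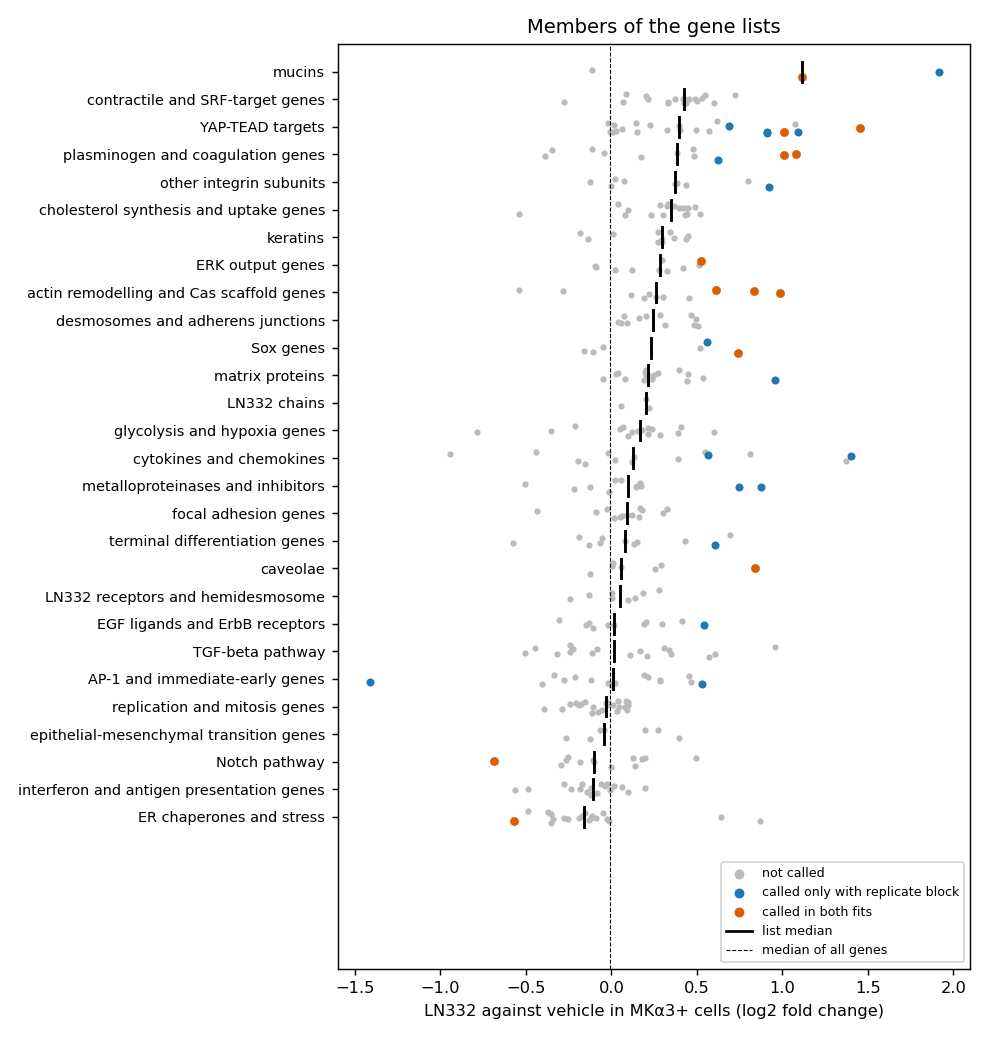
Log2 fold change (LN332 against vehicle in MKα3+ cells, fit without block) of the measured members of 28 gene lists, ordered by the list median, with 1 point per gene and a black bar for the median. Orange members were called in both fits and blue members in the paired fit only, and the lists with the most colored points are the targets of YAP and TEAD, with 6 of 22.

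The paired fit added genes whose replicate pairs agreed while the values within a group were spread. Of the 16 genes named for the largest changes in that fit and called only there, 15 had no overlap between the groups. *Has2*, a hyaluronan synthase, was at 3.13, 4.17, 7.09 and 7.73 CPM with vehicle and 9.76, 9.46, 17.6 and 24.9 CPM with LN332, with both groups highest in replicates 3 and 4. Its log2 fold change was 1.46 ± 0.35 (adjusted p = 0.105) without the block and 1.502 ± 0.18 (adjusted p = 0.00137) with it, and the paired call held without each replicate number in turn. *Ppbp*, a chemokine of the CXC family, was at 78.8, 114, 178 and 201 CPM and 228, 280.1, 463 and 468 CPM, again ordered by replicate number (paired 1.37 ± 0.22 (adjusted p = 0.00568)). *Tnc*, the matrix protein tenascin-C, was at 3.13, 4.81, 5.13 and 5.18 CPM and 7.23, 8.04, 10.2 and 9.52 CPM (paired 0.92 ± 0.21 (adjusted p = 0.0252)), and it was the one call among 17 matrix protein genes, of which 16 had a positive log2 fold change. The other large paired increases were *Morn4* (1.10), *Dysf* (1.08) and *AU018091* (1.15). Antisense transcripts overlap *Has2*, *Dysf* and *Tnc*.

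*Egr1*, an immediate-early transcription factor, had the largest decrease among the genes called in the paired fit with a mean of at least 1 log2 CPM. It was at 98.5, 48.1, 34.9 and 25.1 CPM with vehicle and 65.5, 16.8, 12.3 and 6.41 CPM with LN332, so that it was highest in replicate 1 of both groups, the groups overlapped and every pair was lower. The log2 fold change was -1.41 ± 0.79 (adjusted p = 0.619) without the block and -1.29 ± 0.19 (adjusted p = 0.00303) with it. *Myc*, from the same list of 16 AP-1 and immediate-early genes, rose in the paired fit from 177, 205, 216 and 178 CPM to 260.0, 316, 269 and 277 CPM, by 0.53 ± 0.10 (adjusted p = 0.0102). *Fos*, *Jun* and *Fosl1* had log2 fold changes of -0.34, 0.22 and 0.19 that were not called, and the median of the 16 was 0.011 with TMM and -0.067 with library size alone. *Abcg1*, a sterol exporter, was at 25.8, 19.9, 21.3 and 19.3 CPM and 13.8, 9.05, 9.38 and 10.6 CPM, with no overlap and a paired log2 fold change of -1.02 ± 0.15 (adjusted p = 0.00319). *Fa2h*, a hydroxylase of sphingolipid fatty acids, was at 11.1, 14.6, 15.1 and 14.6 CPM and 6.19, 6.01, 8.91 and 7.30 CPM (paired -0.97 ± 0.16 (adjusted p = 0.00554)). Of the other paired decreases, *Map2k6*, a kinase that activates p38, had -1.03, *Rgs14* had -1.07, *Mak* had -1.11, *Neurl1b* had -1.05, *Kif17* had -0.99, *Syna* had -0.90 and *Pxylp1* had -0.89. All of these were under 6 CPM in every library.

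Genes of cholesterol synthesis and uptake resembled the contractile genes, as 17 of 18 had a positive log2 fold change and all 4 pairs were higher for 16, while 0 were called in either limma-voom fit, 0 by edgeR and 1 by DESeq2 with the block. At an unadjusted p under 0.05, 12 were higher in the paired fit, against 1181 of all 14474 genes. Their median was 0.35. *Cyp51*, *Lss* and *Sqle*, enzymes of the late steps, had paired log2 fold changes of 0.52 ± 0.15 (adjusted p = 0.0640), 0.49 ± 0.15 (adjusted p = 0.0992) and 0.45 ± 0.12 (adjusted p = 0.0579). The exporter *Abca1* had -0.54. Spread between the replicates was wide in these genes, as *Lss* was at 119, 177, 242 and 248 CPM with vehicle and 173, 280.0, 308 and 327 CPM with LN332.

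Epithelial genes had few calls. Of 11 keratins 0 were called by limma-voom, edgeR or DESeq2, with a median of 0.30. In the paired fit 6 of the 11 had an unadjusted p under 0.05, against 2373 of all 14474 genes. *Krt8* had the smallest adjusted p of the keratins, at 0.44 ± 0.09 (adjusted p = 0.0125) in the paired fit. *Krt14*, the keratin of basal cells, was at 4528, 5685, 6357 and 6637 CPM with vehicle and 5896, 8296, 6999 and 8179 CPM with LN332. All 12 genes of desmosomes and adherens junctions had a positive log2 fold change with TMM, and 9 of the 12 with library size alone, with a median of 0.24, 0 calls by the same tools and 6 at an unadjusted p under 0.05. *Cdh1*, which encodes E-cadherin, had a paired log2 fold change of 0.46 ± 0.13 (adjusted p = 0.0757), and *Pkp1*, which encodes plakophilin 1, had a paired 0.49 ± 0.12 (adjusted p = 0.0396). Of 11 terminal differentiation genes 1 was called, *Cdsn* (corneodesmosin), with a paired log2 fold change of 0.62 ± 0.13 (adjusted p = 0.0165). *Trp63*, which encodes the epithelial regulator p63, was at 51.8, 85.1, 87.0 and 82.4 CPM and 30.4, 58.9, 61.9 and 62.1 CPM, lower in every pair and not called (paired -0.54 ± 0.15 (adjusted p = 0.0612)). Of 7 genes of epithelial-mesenchymal transition 0 were called and 1 had an unadjusted p under 0.05, with a median of -0.046.

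Of 11 EGF ligands and ErbB receptors, *Areg*, which encodes amphiregulin, rose in the paired fit from 17.5, 13.4, 16.3 and 12.7 CPM to 26.1, 19.1, 21.6 and 20.3 CPM (log2 fold change 0.54 ± 0.10 (adjusted p = 0.0107)), and the median of the list was 0.014. Of 18 genes of the TGF-β pathway 0 were called by limma-voom or edgeR, 1 by DESeq2 with the block, and 6 had an unadjusted p under 0.05, and *Inhba*, the activin subunit, came closest with a paired 0.95 ± 0.26 (adjusted p = 0.0574). Of 23 replication and mitosis genes 0 were called by the 3 tools and 3 had an unadjusted p under 0.05, with a median of -0.030 and -0.40 ± 0.08 (adjusted p = 0.0190) for *Ccnb2* in the paired fit, under the minimum fold. Of 19 interferon and antigen presentation genes 0 were called and 2 had an unadjusted p under 0.05, with a median of -0.11. Of 16 glycolysis and hypoxia genes 0 were called and 5 had an unadjusted p under 0.05, with a median of 0.17, and *Vegfa* had a paired 0.39 ± 0.10 (adjusted p = 0.0411), under the minimum fold. The counts at an unadjusted p under 0.05 are from the paired fit, where 2373 of all 14474 genes had such a p. The replication and mitosis list and the interferon list did not reach that share.

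The same genes were set beside MKα3− cells, whose 8 libraries are shared with none of the MKα3+ libraries, to ask whether the response depended on α3. All 26 called genes described here had the same sign in MKα3− cells, and the change was larger in MKα3+ cells for 20 of them. The choice of genes by their calls in MKα3+ cells favors a larger change there, and the reverse choice gave the reverse count, as all 44 genes called in MKα3− cells had the same sign in MKα3+ cells and 41 of them changed more in MKα3− cells. Of the 26, 6 were called in MKα3− cells without the block (*Ccn2*, *Serpinb2*, *Muc16*, *Phldb2*, *Arid5a* and *Phlda1*) and 10 in the paired fit, against 0.304% and 1.79% of all genes called in that line. For *Ccn2* the log2 fold change in MKα3− cells was 2.01 ± 0.22, above that in MKα3+ cells, and for *Shroom1* it was 0.14 ± 0.14, against 0.73 in MKα3+ cells. *Sdf2l1* had -0.19 ± 0.11, *Cd80* had 0.35 ± 0.16, *Nedd9* had 0.38 ± 0.14 and *Csf1* had 0.032 ± 0.14 in MKα3− cells. *Sox11* and *Cavin3* were near the floor there, with 13 to 36 and 32 to 92 counts per library, and had log2 fold changes of 0.22 ± 0.38 and 0.42. For genes this low in MKα3− cells, the sign and the difference between the lines (0.52 ± 0.39 for *Sox11*) are poorly measured. List medians in MKα3− cells were 0.23 for contractile, 0.38 for cholesterol, 0.38 for actin remodelling and -0.20 for ER genes, with the sign they had in MKα3+ cells. The sign differed for leukocyte markers, LN332 receptors, EGF ligands and ErbB receptors, epithelial-mesenchymal transition genes and cytokines.

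The difference of the responses between the lines gave 0 genes at an adjusted p under 0.05 in limma-voom, with and without the block, and 0 with edgeR and DESeq2. Genes at an unadjusted p under 0.05 numbered 164 (1.13%) in limma-voom, 168 in edgeR and 207 in DESeq2 without the block, and 517 (3.57%) in the paired fit. The smallest adjusted p was 0.9999 without the block and 0.176 with it. Among the 26 genes, 3 had an unadjusted p under 0.05 without the block. The difference, MKα3+ minus MKα3−, was 0.59 ± 0.20 (unadjusted p = 0.00837) for *Shroom1*, -0.38 ± 0.16 (unadjusted p = 0.0273) for *Sdf2l1* and 0.27 ± 0.12 (unadjusted p = 0.0458) for *Pttg1ip*. With the block 4 of the 26 did, with unadjusted p-values from limma-voom of 0.000663 for *Shroom1*, 0.0229 for *Sdf2l1*, 0.0243 for *Pttg1ip* and 0.0360 for *Cd80*. Over all genes, the smallest p for a difference above 0 was in *Camk2g*, with 0.36 ± 0.09 (unadjusted p = 0.00128), in *Nts*, with 2.32 ± 0.67 (unadjusted p = 0.00287), and in *Pald1*, with 0.69 ± 0.21 (unadjusted p = 0.00457). *Nts*, which encodes neurotensin, was at 0.327, 0.120, 0.470 and 0.360 CPM with vehicle and 1.41, 0.731, 1.75 and 1.27 CPM with LN332 in MKα3+ cells. For a difference below 0, the smallest p was in *Depdc7*, *Ebag9* and *Tnnt2*, with -0.44 ± 0.13 (unadjusted p = 0.00309), -0.42 ± 0.13 (unadjusted p = 0.00474) and -0.62 ± 0.20 (unadjusted p = 0.00683). A response particular to MKα3+ cells was thus not shown for any single gene.

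**Figure D5:**
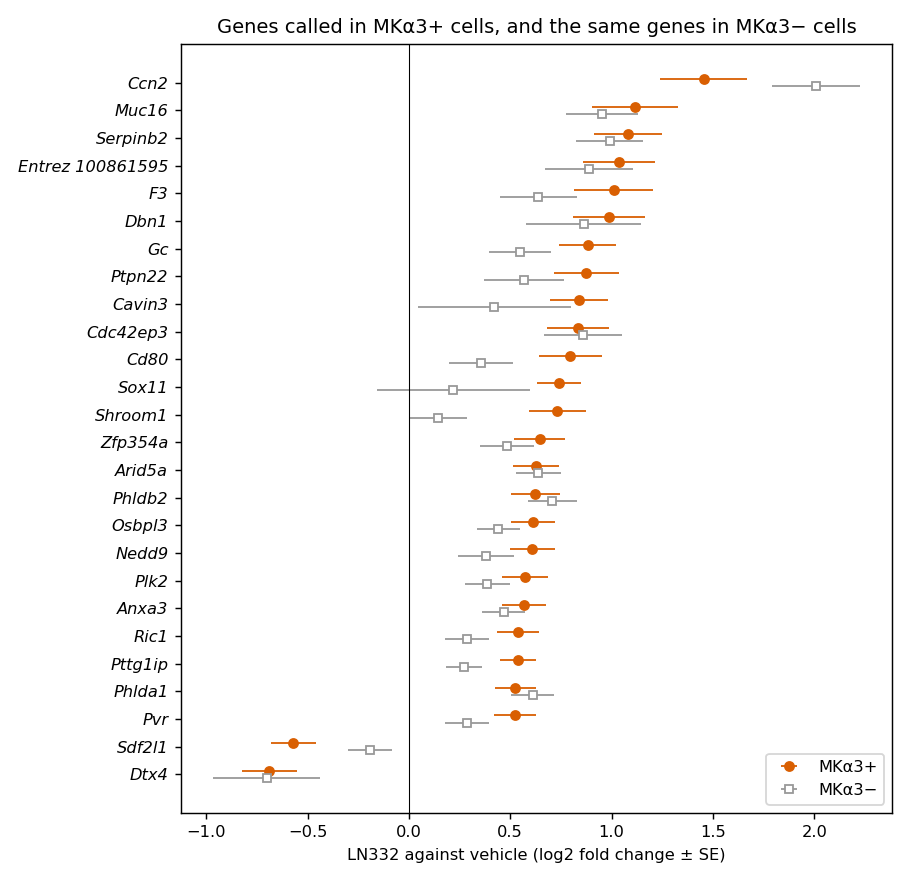
Log2 fold change ± SE of LN332 against vehicle from the fit without block, for the 26 genes called in MKα3+ cells and described here, in MKα3+ (orange circles) and MKα3− cells (grey squares). Both symbols lie on the same side of 0 for all 26 genes, and the orange circle lies farther from 0 for 20 of them.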

How the data were processed

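The authors used Rsubread to align the reads to mm10 and featureCounts with its built-in Entrez annotation to count reads by gene (strand setting not given in the sources used here). The deposited values are raw counts, unnormalized, for 14474 genes in 16 libraries. Here all 16 libraries entered 1 fit with a coefficient per group (edgeR 4.0.16 TMM factors, limma 3.58.1 voom and empirical Bayes, R 4.3.3). The filter of over 0.5 CPM in at least 3 libraries kept all 14474 genes. Where no tool is named, an adjusted p is that of limma-voom, by the method of Benjamini and Hochberg across the 14474 genes. Calls needed an adjusted p under 0.05 and a log2 fold change beyond 0.5 in either direction. The paired fit added the replicate number from the labels as a block. It was used because all 4 same-number correlations were over 0.1, and 7 of the 8 MKα3+ libraries correlated best with their own number. Replicates differed by more than sampling noise (chi-square of their counts at least 5.45 times its degrees of freedom), so none were merged.

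The genes named were all those called without the block, the 10 largest changes in each direction in the paired fit (mean of at least 1 log2 CPM, 1 direction in all 4 pairs), the ligand and receptor genes, called list members, up to 4 members of lists with no call, and the 3 smallest p-values in each direction for the difference between the lines. Other list members were named after their values were seen. The members and gene lists were chosen with earlier results of these data known. Of the 27 called genes 1 is not reported here, nor are some list members. Alternatives were DESeq2 1.42.0, edgeR's quasi-likelihood test, other scalings, filters, weights and minimum folds, the 8 libraries alone and libraries left out. The fits were tested on simulated data. Positions, overlaps and promoters are from RefSeq and GENCODE annotation of GRCm38.p6, which held 64 of the 65 genes looked up.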

Additional observations from a re-analysis of the deposited data

Results flagged for a closer look

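One library stood far from the remaining 3 of its group in 8 of 138 combinations of gene and group, and chance alone flags about 1 in 20, or 6.9 of them. In vehicle-treated MKα3+ cells, *Sdf2l1* was at 78.2 CPM in replicate 3 (62.8 to 63.4 in the others), *Cd80* at 37.8 CPM in replicate 2 (33.8 to 34.0), *Cavin3* at 73.2 CPM in replicate 2 (100.1 to 102.8) and *Fa2h* at 11.1 CPM in replicate 1 (14.6 to 15.1). In LN332-treated MKα3+ cells, replicate 1 had *Cdc42ep3* at 64.3 CPM (51.8 to 53.2 in the others), *Itga3* at 272 CPM (311 to 314) and *Itgb1* at 542 CPM (779.7 to 823), and *Gc* was at 70.4 CPM in replicate 4 (49.0 to 51.4).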

How the results depend on the processing

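The number of genes called with LN332 in MKα3+ cells was 27 with no replicate block and 218 with it, and the setting of the block, the library weights, the tool and the scaling each moved it. With no block the count was 3 with library size alone (2 higher and 1 lower), 4 with edgeR's quasi-likelihood test, 121 with DESeq2, 454 with sample quality weights (241 higher and 213 lower), 106 with the 8 MKα3+ libraries alone and 5 at a minimum absolute log2 fold change of 1. The replicate number as a block is a pairing that the correlations bore out for 7 of the 8 libraries. With it the count was 171 as a random effect and 333 with sample quality weights. It was 201 with edgeR and 293 with DESeq2, both chosen after seeing the data as alternatives to the fit with no block. With the block, the 8 libraries alone gave 516, no minimum fold gave 488 and a minimum of 1 gave 24. Library size alone with the block gave 261 genes, of which 34.9% were higher, against 67.0% with TMM. The other scalings and filters gave 27 to 30 genes with no block and 218 to 223 with it. Leaving out 1 library gave 0 to 47 genes, with 0 without vehicle replicate 2 or 4 or LN332 replicate 3 or 4 of MKα3+ cells. MKα3− libraries, which enter the same fit, moved it too, to 7 without replicate 2 of either MKα3− group, and to 14 and 15 without vehicle replicate 4 and LN332 replicate 3, 16 without vehicle replicate 3, and 47 and 43 without LN332 replicate 1 and 4. Leaving out 1 replicate number in the paired fit gave 14 to 248. Exact permutation of CPM gave its smallest p, 0.0286, for 53 of the 65 genes taken by the naming rule. Most of these genes were named for calls in the same libraries, so the count is no separate support. Across all genes, 4.78% were higher and 4.88% lower without overlap between the groups. Sign changes of the 4 pairs gave 0 genes under 0.05, since 16 arrangements allow no p under 0.125. The difference between the lines stayed at 0 genes in every fit run.

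Signs near 0 turned for 3 genes that were never called. *Lamb3* went to -0.021 with library size alone, with and without the block, and was between -0.018 and 0.15 with 1 library left out. *Itgb4* was at -0.074 (with block -0.071) with library size alone, -0.048 (with block -0.012) with sample quality weights and -0.0031 with edgeR, between -0.13 and 0.10 with 1 library left out, and between -0.036 and 0.053 with 1 replicate number left out. *Itga6* was between -0.24 and 0.065 with 1 library left out. The cause of these shifts was not tested.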
